A study of Mus musculus with 9 samples.

Results

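The genes described here are 8 mouse genes of the osmolyte system: Nfat5, Akr1b3, Akr1b8, Sord, Slc5a3, Slc6a6, Slc6a9 and Slc6a12. They were taken by symbol, for their known roles, from the 35275 genes of the deposited table, and each was found once. Wild type mouse embryonic fibroblasts (MEFs) of C57Bl/6 background, a connective tissue cell grown in culture, stayed in iso-osmolar medium (300 mOsm) or received for 3 h medium brought to 500 mOsm with 200 mM sucrose (low intensity hyperosmotic stress) or to 600 mOsm with 300 mM sucrose (high intensity hyperosmotic stress). All groups shared the same genotype and medium apart from the sucrose, the labels name no other allele or agent, and poly-A RNA was sequenced as 3 libraries per treatment, 9 in all. The labels do not say whether libraries of a treatment came from separate cultures, so p-values measure the spread between these libraries only. Reads counted on genes lay between 21716042 and 26740832 per library. The sum of 14 fibroblast markers lay between 21761 and 26709 CPM (TMM-scaled counts relative to library size) in all libraries, most of it collagens, Fn1 and Vim, and 1 or 2 of the markers had no count in any library of a treatment. The markers Dcn, Lum and Fap reached at most 3, 1 and 0 counts in any library and were not tested. Of the 11 tested, 1 was higher and 3 lower at 500 mOsm (among them Col3a1 at -1.27 and Pdgfra at -0.70 in log2 fold change). Of all genes tested, 13.2% were higher and 14.8% lower there. At 600 mOsm 4 of the markers were higher and 3 lower, beside 15.1% and 20.0% of all genes tested.

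Cells in concentrated medium lose water, and they regain volume without raising their salt content by gathering small neutral solutes called organic osmolytes. Nfat5, also named TonEBP, is the transcription factor known for switching on the genes that make or import them. Aldose reductase makes sorbitol from glucose, sorbitol dehydrogenase removes it, and carriers bring in myo-inositol, taurine, glycine and betaine together with sodium. This system is best known in the kidney medulla, where the surrounding fluid is normally concentrated, and it is also used by cultured cells.

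At low intensity, mRNA levels of aldose reductase (Akr1b3), the myo-inositol carrier (Slc5a3), the taurine carrier (Slc6a6), the glycine carrier (Slc6a9) and sorbitol dehydrogenase (Sord) rose above iso-osmolar medium. At high intensity, Sord and Slc6a9 were again higher, while Nfat5 and Slc5a3 fell below iso-osmolar medium. Between the intensities, Nfat5, Akr1b3, Slc5a3 and Slc6a6 were lower at 600 than at 500 mOsm. The betaine carrier Slc6a12 was at or near 0 counts throughout. In counts of genes passing the edgeR quasi-likelihood test at a Benjamini-Hochberg adjusted p under 0.05, 7 of the 8 genes could be tested, each with at least 221 counts in every library. At 500 mOsm against iso-osmolar, 5 of the 7 were called, all higher, where 28.0% of the 13082 genes tested were called, 13.2% higher and 14.8% lower. At 600 mOsm against iso-osmolar, 2 were higher and 2 lower, where 35.1% of all genes tested were called, 15.1% higher and 20.0% lower. Between 600 and 500 mOsm, 4 were lower and 0 higher, where 29.1% were called, 11.9% higher and 17.2% lower. The 0 called higher there was also 0 at an unadjusted p under 0.05, in DESeq2 and in limma, and the same held for the 0 called lower at 500 mOsm. Libraries did not overlap for 6 of the 7 genes at 500 mOsm against iso-osmolar (40.9% of all genes tested), for 6 at 600 mOsm against iso-osmolar (48.4%) and for 4 between the intensities (41.5%). The median log2 fold change of the 7 genes was 0.44, 0.02 and -0.64 in the 3 comparisons, beside 0.01 over all genes tested in each. The 3 comparisons share libraries in pairs, so their values are given side by side and are not separate evidence.

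**Figure D1:**
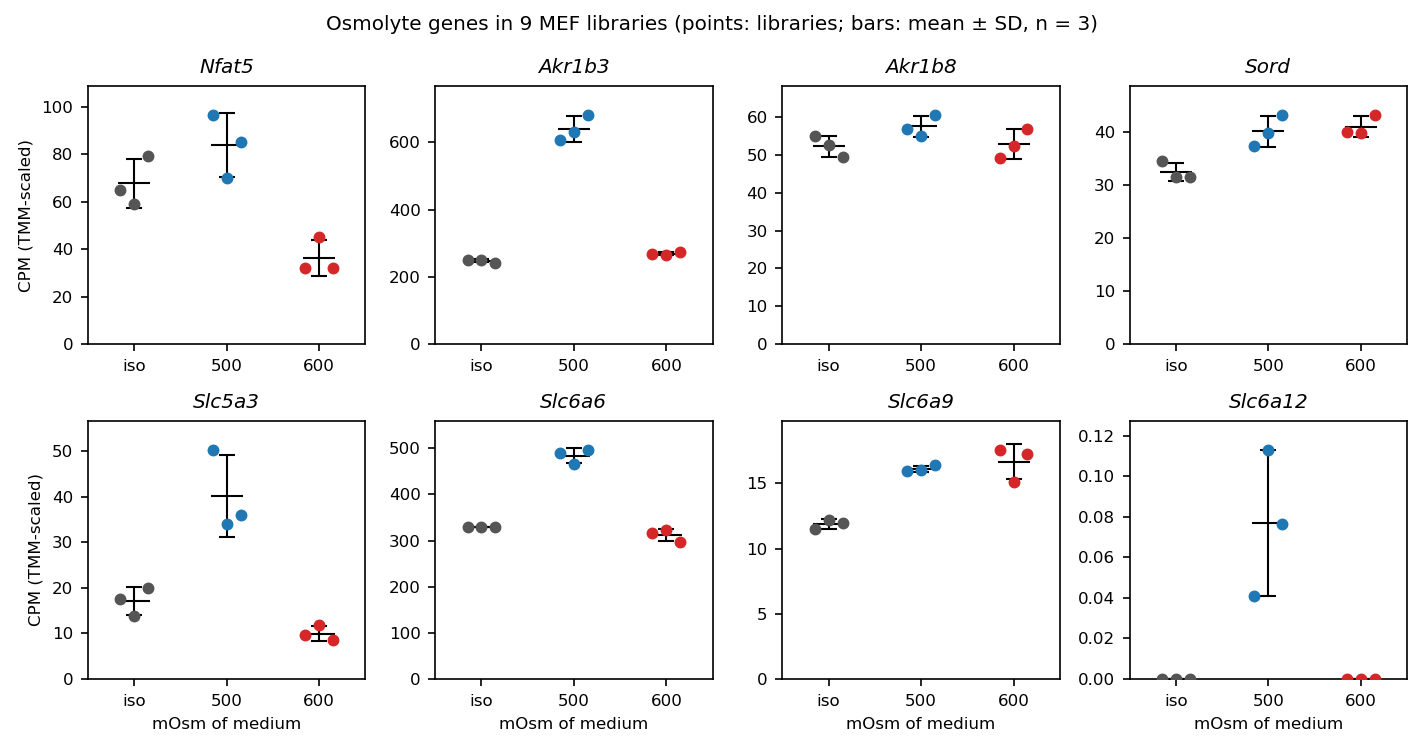
CPM of each of the 8 genes (vertical axes, from 0, a scale per gene) in iso-osmolar, 500 and 600 mOsm medium (horizontal axes), with a point per library and bars for the mean ± SD of 3 libraries. Akr1b3, Slc5a3 and Slc6a6 peak at 500 mOsm, Nfat5 is lowest at 600 mOsm, Sord and Slc6a9 are raised at both, and Slc6a12 never passes 0.113 CPM.

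The transcription factor Nfat5 lies on the plus strand at chr8:107293470-107379517 (mm10). Its level was 65.0, 58.8 and 79.2 CPM in the iso-osmolar libraries, 96.6, 70.0 and 85.2 CPM at 500 mOsm and 32.2, 45.0 and 31.9 CPM at 600 mOsm. All 600 mOsm libraries were below all others, while the 500 mOsm and iso-osmolar libraries overlapped. The fall at 600 mOsm against iso-osmolar was -0.90 on the log2 scale (SE 0.151, edgeR adjusted p = 0.000609), a level 0.537 times that of iso-osmolar medium with a 95% interval of 0.428 to 0.674. Against 500 mOsm the log2 fold change was -1.21 (SE 0.150, edgeR adjusted p = 6.63e-05). At 500 mOsm against iso-osmolar the log2 fold change was 0.31 (SE 0.145), which did not pass the test (edgeR adjusted p = 0.140), and its interval of 0.996 to 1.54 in fold covered no change.

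Nfat5 and Slc5a3 are the longest of the 8 genes, with listed transcript lengths of 13443 and 10913 bases, and they also varied most between libraries of a treatment. Their coefficients of variation in CPM were 15.4% to 20.6% for Nfat5 and 16.8% to 22.2% for Slc5a3, while the 5 other genes tested stayed between 0.291% and 8.13%. The 246 tested genes of 10000 bases or more moved in the same libraries: the sign of each library's deviation from its treatment mean matched that of their median in 8 of 9 libraries for Nfat5 and in 8 of 9 for Slc5a3. Centring within treatments ties these signs together, so the 9 libraries are not 9 separate agreements. Nfat5 and Slc5a3 are themselves among the 246 genes. Library 1 at 500 mOsm and library 2 at 600 mOsm were the highest of their treatments in all 3 measures, with the long genes at 0.13 and 0.10 on the log2 scale, Nfat5 at 0.21 and 0.33, and Slc5a3 at 0.35 and 0.25. In iso-osmolar medium library 3 was highest in all 3, at 0.05, 0.24 and 0.23. The long genes as a class were also lower at 600 mOsm, with a median log2 fold change of -0.23 against iso-osmolar and -0.34 against 500 mOsm, and 41.5% and 45.5% of them were called lower, where 20.0% and 17.2% of all genes tested were. After a correction of each library for gene length and GC content, added after the data were seen, Nfat5 was still lower at 600 mOsm, by -0.67 against iso-osmolar (edgeR adjusted p = 7.01e-06) and by -0.96 against 500 mOsm (edgeR adjusted p = 1.92e-07). With that correction Nfat5 at 500 mOsm passed the test at a log2 fold change of 0.29 (edgeR adjusted p = 0.00461). The main fit gave 0.31, so the value was not larger. The corrected fit called more genes in general, 4751 over all genes at 500 mOsm in place of 3659.

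**Figure D2:**
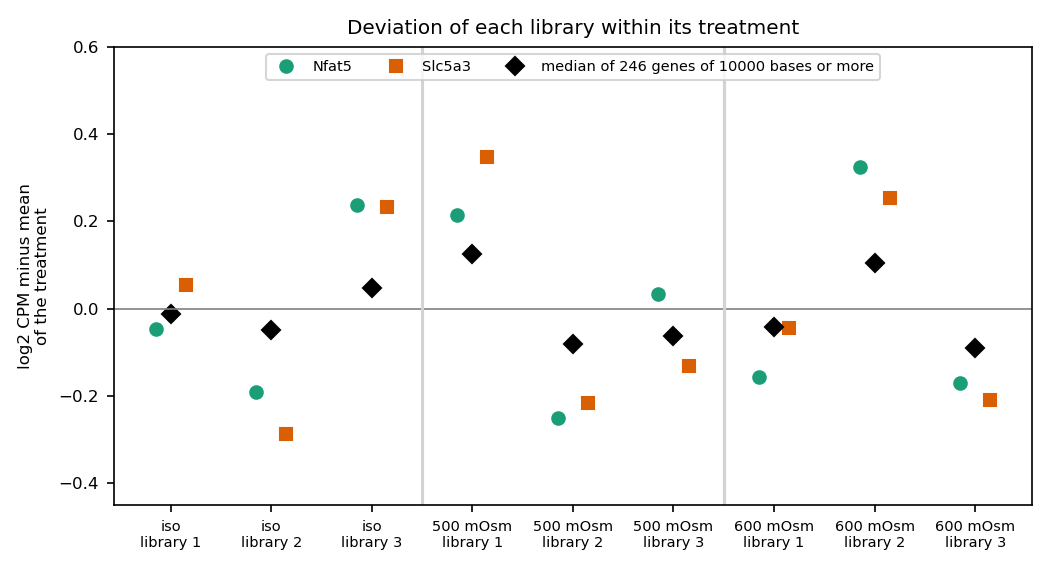
Deviation of each of the 9 libraries (horizontal axis) from the mean of its treatment, in log2 CPM (vertical axis), for Nfat5 (circles), Slc5a3 (squares) and the median of the 246 tested genes of 10000 bases or more (diamonds). The 3 symbols fall on the same side of 0 in most libraries, and library 1 at 500 mOsm and library 2 at 600 mOsm are the highest of their treatments.

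Akr1b3, the mouse aldose reductase, lies on the minus strand at chr6:34303934-34317497. It had 251, 250 and 243 CPM in iso-osmolar medium, 608, 632 and 682 CPM at 500 mOsm and 268, 265 and 275 CPM at 600 mOsm. Every 500 mOsm library was above every other, and the 600 mOsm libraries lay just above the iso-osmolar ones without overlap. The rise at 500 mOsm was 2.59-fold (95% interval 2.40 to 2.78), a log2 fold change of 1.37 (SE 0.0489, edgeR adjusted p = 7.03e-10), higher than that of 95.4% of the genes tested. From 500 to 600 mOsm the level fell by 1.25 on the log2 scale (SE 0.0488, edgeR adjusted p = 1.99e-09). At 600 mOsm against iso-osmolar the log2 fold change of 0.12 (SE 0.0485) did not pass (edgeR adjusted p = 0.0715), and with the length and GC correction it was 0.19 and passed (edgeR adjusted p = 0.000881).

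Akr1b8, a related aldo-keto reductase of the same chromosome, lies on the plus strand at chr6:34354119-34368463. Its 9 libraries lay between 49.2 and 60.6 CPM, with means of 52.3 ± 2.77 CPM in iso-osmolar medium, 57.5 ± 2.84 CPM at 500 mOsm and 52.8 ± 3.87 CPM at 600 mOsm (SD, n = 3). At 500 mOsm against iso-osmolar the fold was 1.10 with a 95% interval of 0.993 to 1.22 (edgeR adjusted p = 0.163), and the libraries did not overlap. At 600 mOsm it was 1.01 with an interval of 0.912 to 1.12 (edgeR adjusted p = 0.878), and its sign depended on the scaling. The longest run that the coding sequences of both genes share, shown because counts of close relatives can be mixed, had 24 bases, of 948 coding bases at 70.9% identity, and starts at base 217 of the Akr1b3 coding sequence in GENCODE M21.
Akr1b3 and Akr1b8 shared run: ctcttcattgtcagcaagctgtgg
Reads had 150 bases, only coding sequences were compared, and mixing of reads between these genes was not tested. The other neighbours, Akr1b10 and Akr1b7, share at most 23 bases in a row with Akr1b3, and Akr1b7 had 0 counts in every iso-osmolar and 600 mOsm library and 8 counts in all at 500 mOsm.

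Sord, the sorbitol dehydrogenase that turns sorbitol into fructose, lies at chr2:122234749-122265340 on the plus strand. It had 34.5, 31.5 and 31.6 CPM in iso-osmolar medium, 37.4, 39.8 and 43.2 CPM at 500 mOsm and 40.0, 39.8 and 43.3 CPM at 600 mOsm. All treated libraries were above all iso-osmolar ones, and the intensities overlapped. The log2 fold changes against iso-osmolar were 0.30 at 500 mOsm (edgeR adjusted p = 0.00663) and 0.33 at 600 mOsm (edgeR adjusted p = 0.00339), and between the intensities the fold was 1.02 with a 95% interval of 0.918 to 1.14. The ratio of Akr1b3 to Sord in FPKM (counts scaled to the listed gene length and to the library total) was 5.51 ± 0.240 without sucrose, 11.5 ± 0.173 at 500 mOsm and 4.75 ± 0.133 at 600 mOsm (SD, n = 3). The ratio was thus highest at 500 mOsm and lowest at 600 mOsm, with no overlap between treatments.

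Slc5a3, the sodium-coupled myo-inositol carrier, lies at chr16:92058322-92087473 on the plus strand. It had 17.7, 13.9 and 20.0 CPM in iso-osmolar medium, 50.3, 34.0 and 36.1 CPM at 500 mOsm and 9.59, 11.8 and 8.55 CPM at 600 mOsm. The 3 treatments did not overlap, with 500 mOsm highest and 600 mOsm lowest. The log2 fold changes were 1.22 at 500 mOsm (SE 0.165, edgeR adjusted p = 0.000104), -0.79 at 600 mOsm (SE 0.178, edgeR adjusted p = 0.00451) and -2.01 between the intensities (SE 0.173, edgeR adjusted p = 2.99e-06). The last is a level 0.248 times that at 500 mOsm (95% interval 0.191 to 0.322), and 97.4% of the genes tested had a higher fold change. With the length and GC correction the values were 1.25, -0.58 and -1.83, each past the threshold.

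Slc5a3 starts 14 bases from Mrps6, a gene for a protein of the small mitochondrial ribosome subunit, on the same strand, and 159 of the 10913 exon bases of Slc5a3 (1.46%) are also exon of Mrps6. Their common start region is shown because one stretch of DNA stands in front of both genes. It is the RefSeq promoter sequence of GRCm38.p6, chr16:92058072-92058336, plus strand, with the first base of Slc5a3 and then that of Mrps6 in capitals.
Slc5a3 and Mrps6 start region: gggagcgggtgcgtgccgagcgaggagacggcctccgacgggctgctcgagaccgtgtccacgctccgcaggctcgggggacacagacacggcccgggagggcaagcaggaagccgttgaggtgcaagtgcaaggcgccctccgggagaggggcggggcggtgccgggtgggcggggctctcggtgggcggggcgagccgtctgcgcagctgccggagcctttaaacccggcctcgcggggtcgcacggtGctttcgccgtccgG
Mrps6 had 28.0, 27.1 and 27.6 CPM in iso-osmolar medium, 36.2, 36.0 and 38.7 CPM at 500 mOsm and 32.2, 33.0 and 30.3 CPM at 600 mOsm. It was higher than iso-osmolar medium at both intensities, where Slc5a3 was higher at one and lower at the other. The log2 fold changes of Mrps6 were 0.42 at 500 mOsm (edgeR adjusted p = 0.000246), 0.21 at 600 mOsm (edgeR adjusted p = 0.0236) and -0.21 between the intensities (edgeR adjusted p = 0.0224). A test of the difference between the genes was not made. How the counting divided reads on the common exon bases is not given in the sources used here.

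Slc6a6, the taurine carrier, lies at chr6:91684067-91759063 on the plus strand. It had 330, 328 and 330 CPM in iso-osmolar medium, 490, 465 and 497 CPM at 500 mOsm and 316, 322 and 296 CPM at 600 mOsm. All 500 mOsm libraries stood above the rest, and the 600 mOsm libraries lay just below the iso-osmolar ones. The rise at 500 mOsm was 1.47-fold (95% interval 1.37 to 1.57, log2 fold change 0.56, edgeR adjusted p = 1.47e-06), and from 500 to 600 mOsm the log2 fold change was -0.64 (edgeR adjusted p = 6.67e-07). At 600 mOsm against iso-osmolar it was -0.08 (edgeR adjusted p = 0.197), and 0.08 with the length and GC correction.

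Slc6a9, a glycine carrier, lies at chr4:117834506-117875198 on the plus strand. It had 11.5, 12.2 and 11.9 CPM in iso-osmolar medium, 15.9, 16.0 and 16.4 CPM at 500 mOsm and 17.6, 15.1 and 17.2 CPM at 600 mOsm. Both treated groups were above iso-osmolar medium and overlapped each other, as for Sord. The log2 fold changes were 0.44 at 500 mOsm (edgeR adjusted p = 0.00160) and 0.49 at 600 mOsm (edgeR adjusted p = 0.000760), and between the intensities the fold was 1.04 with a 95% interval of 0.915 to 1.17. Of the 5141 exon bases of Slc6a9, 1429 (27.8%) overlap Ccdc24 on the opposite strand, which had between 12 and 24 counts in each library, and 46 overlap B4galt2, which had means of 98.6, 110.0 and 118 CPM. Whether the counting used strand is not given in the sources used here, so reads from these partners cannot be told apart from those of Slc6a9.

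Slc6a12, the betaine carrier, lies at chr6:121343076-121365775 on the plus strand. It had 0 counts in each iso-osmolar and 600 mOsm library and 1, 3 and 2 counts at 500 mOsm. All of these are at or under the floor of 3 counts per library, between 0.112 and 0.138 CPM, so no fold was computed, and floors cover counting error only. The DNA site that Nfat5 is known to bind, the tonicity-responsive element, has the core TGGAAA, whose GGAAA also lies in the sites of other NFAT proteins. RefSeq start windows (250 bases before to 50 after a start, GRCm38.p6) were found for 6 of the 8 genes, all but Akr1b3 and Slc6a6. On either strand, the core stood in 21.4% of the 32851 windows of all genes and, among the 6 genes, in 1 of the 5 windows of Slc6a12 only. That window, of the most upstream of the 5 starts, is shown up to its start, plus strand, chr6:121342324-121342574. The core is in capitals, 75 bases before the start of that window. The gene coordinates given above begin further downstream, at 121343076.
Slc6a12 start window: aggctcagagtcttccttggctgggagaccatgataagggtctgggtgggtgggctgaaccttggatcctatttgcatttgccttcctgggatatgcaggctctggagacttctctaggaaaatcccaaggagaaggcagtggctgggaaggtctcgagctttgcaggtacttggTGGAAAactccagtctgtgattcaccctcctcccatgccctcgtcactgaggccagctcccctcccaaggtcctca
A match is a description of letters and no evidence of binding, and these windows do not cover distant elements.

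**Figure D3:**
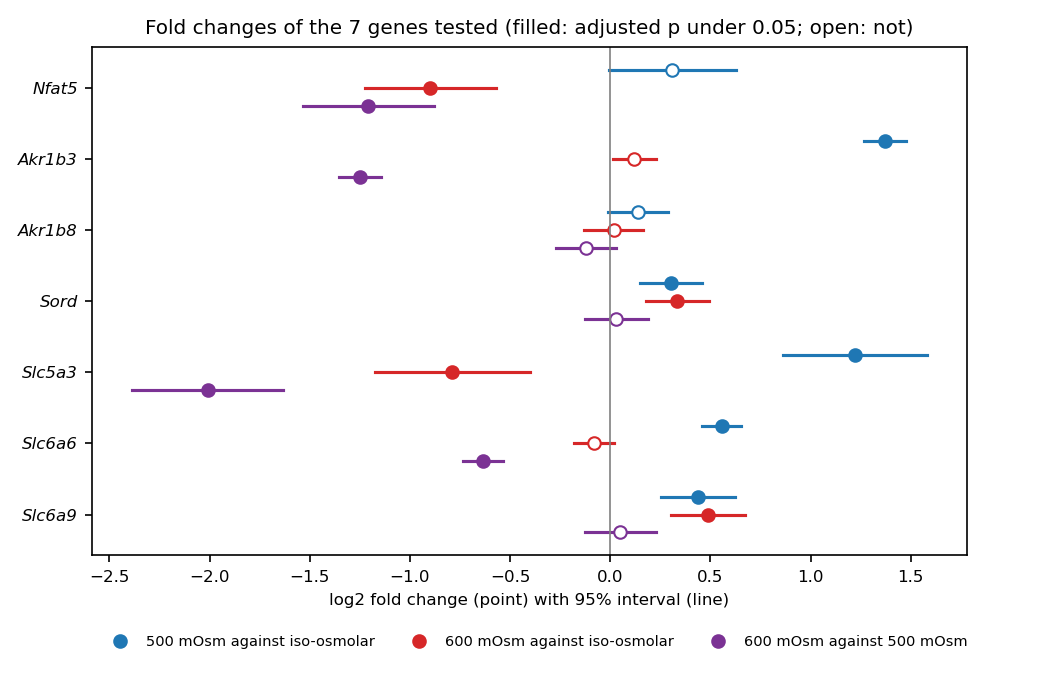
Log2 fold changes (points) with 95% intervals (lines) of the 7 genes tested, in edgeR, for the 3 comparisons. Filled points passed an adjusted p of 0.05. Akr1b3, Slc5a3 and Slc6a6 are right of 0 at 500 mOsm and left of 0 from 500 to 600 mOsm, and Sord and Slc6a9 lie right of 0 at both intensities.

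Per length, in FPKM, Akr1b3 was the highest of the 8 genes in every treatment, with means of 76.5 (iso-osmolar), 197 (500 mOsm) and 82.0 (600 mOsm), followed by Slc6a6 with 53.7, 78.7 and 50.1. Akr1b8 (38.7, 42.4 and 38.5), Sord (13.9, 17.1 and 17.3), Nfat5 (5.06, 6.26 and 2.69), Slc6a9 (3.43, 4.63 and 4.74) and Slc5a3 (1.59, 3.69 and 0.909) came next. The order was the same at 300 and 500 mOsm, and at 600 mOsm Slc6a9 stood above Nfat5. Neighbours in the order did not overlap between libraries, except Slc6a9 and Slc5a3 at 500 mOsm, which do not differ beyond their spread. The deposited FPKM of Akr1b3 rests on a length of 3254 bases, which in GENCODE M21 is that of a transcript with a retained intron. On its longest coding transcript of 1387 bases its levels would be 2.35 times higher, at 179, 463 and 192. Summed over the 8 genes, the level was 759 ± 9.95 CPM in iso-osmolar medium, 1362 ± 55.0 CPM at 500 mOsm and 738 ± 12.0 CPM at 600 mOsm (SD, n = 3). Akr1b3 made up 32.7% ± 0.829 of these counts without sucrose, 47.0% ± 1.87 at 500 mOsm and 36.5% ± 1.23 at 600 mOsm (SD, n = 3). In RNA from whole cultures, a change in the number of cells that express a gene and a change per cell cannot be told apart.

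The genes whose pattern over the 9 libraries was most like each of the 7 were sought by the root mean square difference of log2 CPM, centred on the iso-osmolar mean, among the 10381 genes whose log2 CPM averaged 1 or more. For Slc5a3 they were Skil (0.197) and Tgif1 (0.248), and for Nfat5 Cobll1 (0.162) and Ahnak (0.166). For Akr1b3 they were Amotl2 (0.118) and Sat1 (0.126), for Slc6a6 Fhl2 (0.0686) and Ankrd10 (0.0886), and for Slc6a9 Cdc25b (0.0609) and Plk1 (0.0639). Akr1b8 was nearest to Tmem104 (0.0484) and Rexo2 (0.0608), and Sord to Smyd3 (0.0485) and Lrsam1 (0.0570). Genes that change little have many close neighbours, so these distances are not comparable between the 7 genes.

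Among 19 other genes reported as Nfat5 targets, 13 could be tested, and at 500 mOsm 9 were higher and 0 lower, beside 13.2% higher and 14.8% lower over all genes tested. At an unadjusted p under 0.05 1 was lower, and 0 in DESeq2 and limma. The 9 include Hspa1a, at 0.212 CPM in iso-osmolar medium, and Aqp2, at means of 0.167, 0.944 and 0.349 CPM. Aqp2 lay near the floor in iso-osmolar medium and may have passed the filter only through its 500 mOsm libraries. Its call is thus no separate support for the count. The 9 were led by Hspa1b, a heat shock protein of the Hsp70 family (mean 23.3 CPM in iso-osmolar medium and 633 CPM at 500 mOsm, log2 fold change 4.76, edgeR adjusted p = 1.92e-12), Slc38a2, a carrier of neutral amino acids (146 and 876 CPM, 2.59, edgeR adjusted p = 1.48e-11), and Ccl2, a chemokine (9.64 and 38.0 CPM, 1.98, edgeR adjusted p = 5.76e-09). Hspa1a (4.83) is a near-identical copy of Hspa1b, so the division of reads between them is uncertain. At 600 mOsm 4 were higher and 3 lower (15.1% and 20.0% over all genes tested): Hspa1b stayed higher at 1.06 (edgeR adjusted p = 8.13e-07), the water channel Aqp1 was higher at 0.52 (edgeR adjusted p = 1.94e-05), and the prostaglandin synthase Ptgs2 and the kinase Sgk1 were lower at -1.62 (edgeR adjusted p = 3.51e-07) and -0.71 (edgeR adjusted p = 2.02e-06). From 500 to 600 mOsm 1 was higher and 9 lower (11.9% and 17.2% over all genes tested), Hspa1b by -3.70, Slc38a2 by -2.61 and Ptgs2 by -2.17, with Ccl2 also lower. Over the 13 genes the median log2 fold change was 0.62 at 500 mOsm, 0.10 at 600 mOsm and -0.96 between them. The study followed Slc38a2, Hspa1a, Ccl2, Il6 and Nos2 of this list in MEFs under the same stress, so the list is not independent evidence of a direction.

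**Figure D4:**
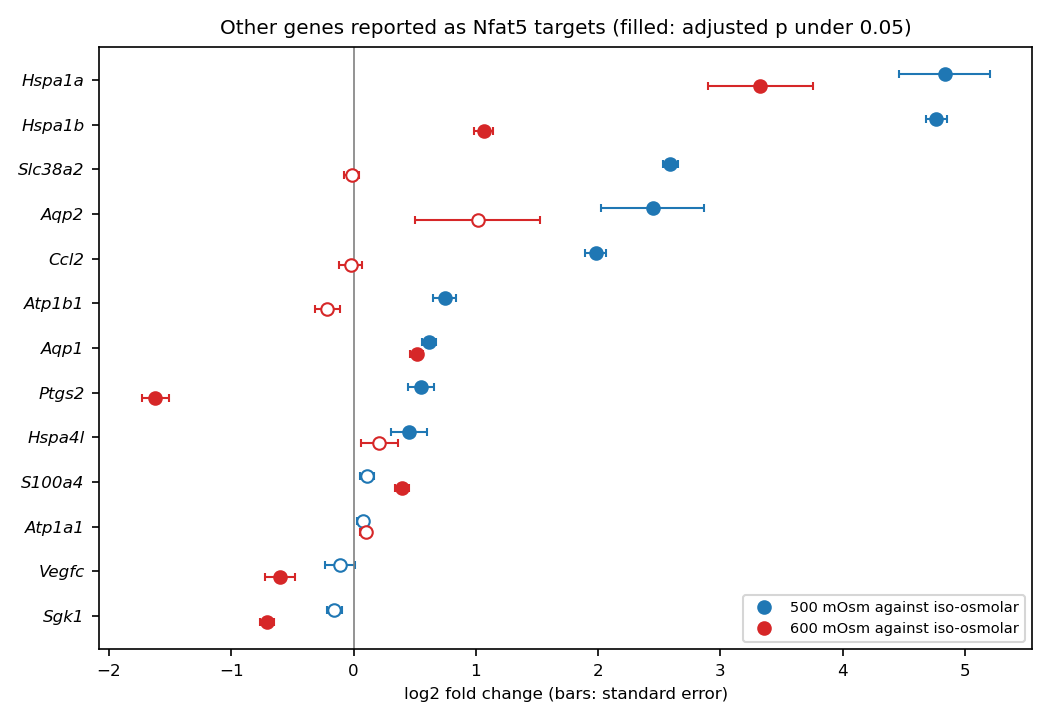
Log2 fold changes against iso-osmolar medium (horizontal axis, bars for the standard error) of the 13 tested genes of the list of other Nfat5 targets, at 500 and 600 mOsm. Filled points passed an adjusted p of 0.05: 9 genes are higher at 500 mOsm, and 4 are higher and 3 lower at 600 mOsm.

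Of 20 relatives, partners and activators of Nfat5, all tested, 0 were higher in any comparison and 3, 11 and 10 were lower at 500 mOsm, at 600 mOsm and between the intensities. These are 15%, 55% and 50% of the list, beside 14.8%, 20.0% and 17.2% of all genes tested, and the share at 500 mOsm was near the background. None was higher at an unadjusted p under 0.05, in DESeq2 or in limma. Nfatc1, a calcium-regulated relative, was at 91.8, 57.6 and 40.6 CPM in the 3 treatments, with log2 fold changes of -0.67 and -1.18 against iso-osmolar (edgeR adjusted p = 9.04e-06 and 1.05e-07). Nfkb1, which encodes an NF-kB subunit, was at 178, 148 and 105 CPM (-0.27 and -0.76, edgeR adjusted p = 0.00196 and 4.51e-07, with -0.15 at 500 mOsm after the length and GC correction), and Map2k3, a kinase that activates p38, at 488, 412 and 318 CPM (-0.24 and -0.62, edgeR adjusted p = 0.000528 and 2.47e-07). Akap13, an anchoring protein reported to act on Nfat5, was lower at 600 mOsm by -0.82 (edgeR adjusted p = 2.79e-05), or -0.50 in limma on log2 FPKM plus 1. Between the intensities the length and GC correction moved Akap13 from -0.89 to -0.54 and Ptpn11 from -0.33 to -0.12, and both still passed.

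The lists of genes that make or break down the same osmolytes gave mixed counts, and each holds few tested genes. Over all genes tested 28.0% were called at 500 mOsm, 35.1% at 600 mOsm and 29.1% between the intensities. At 500 mOsm none of these lists with 5 or more tested genes exceeded that share. Among lists of that size, other aldo-keto reductases and fructose use exceeded it at 600 mOsm (50%). Between the intensities that list (50%) and betaine and glycerophosphocholine (40%) exceeded it. With at least 10 counts required in every library, the betaine list kept 1 higher and 1 lower between the intensities. At 500 mOsm it then kept 1 higher. Of the 10 tested genes of betaine and glycerophosphocholine, 2 were higher at 500 mOsm, 3 were higher at 600 mOsm, and 2 were higher and 2 lower between the intensities. Chka, a choline kinase, was at 19.6, 87.5 and 29.6 CPM, with log2 fold changes of 2.16 at 500 mOsm (edgeR adjusted p = 3.15e-08) and 0.60 at 600 mOsm (edgeR adjusted p = 0.00172). Chdh, the choline dehydrogenase of betaine synthesis, was the other gene called at 500 mOsm, at 0.0424, 1.41 and 0.180 CPM. Its iso-osmolar mean lay under the floor of 3 counts, so its calls rest on the 500 mOsm libraries. Pnpla6, a phospholipase that yields glycerophosphocholine, was higher at 600 mOsm by 0.39 (edgeR adjusted p = 0.000685). Of the 5 tested genes of inositol uptake and synthesis, 0 were called at 500 mOsm, where 1 was lower at an unadjusted p under 0.05, 0 in DESeq2 and limma, and 2 lower with the length and GC correction. The phosphatase Impad1 alone was called by edgeR, lower at 600 mOsm (-0.62, edgeR adjusted p = 0.000239) and between the intensities (-0.38, edgeR adjusted p = 0.00739). At 600 mOsm DESeq2 also called 2 higher. Isyna1, Impa1, Impa2 and Cdipt, the others tested, were not called by edgeR in any comparison. These data do not show that Impad1 acts on inositol. Of the 2 tested genes of taurine synthesis, Ado, a thiol dioxygenase, was lower at 500 mOsm by -0.49 (edgeR adjusted p = 0.00245), and 0 were called in the other comparisons by edgeR, DESeq2 or limma, with 1 at an unadjusted p under 0.05 in each. Of the 6 tested genes of other aldo-keto reductases and fructose use, 0 were called at 500 mOsm, also at an unadjusted p under 0.05, in DESeq2 and in limma, and 1 was lower with the length and GC correction. At 600 mOsm Akr1a1 (0.27, edgeR adjusted p = 0.00215) and Akr1e1 (0.43, edgeR adjusted p = 0.00686) were higher and the fructose kinase Khk lower (-0.91, edgeR adjusted p = 0.0111, or -0.55 in limma on log2 FPKM plus 1). Between the intensities Akr1a1 (0.17, edgeR adjusted p = 0.0307), Akr1e1 (0.33, edgeR adjusted p = 0.0323) and Akr7a5 (0.27, edgeR adjusted p = 0.0419) were higher and 0 lower. With the replicate block or at an adjusted p under 0.01, 0 of them were called. The same held without 500 mOsm library 1, without 500 mOsm library 3 and without 600 mOsm library 3. In limma on log2 FPKM plus 1 and without 500 mOsm library 2, 1 was called. Of 17 other Slc6 genes only 3 could be tested, and the creatine carrier Slc6a8 was lower at 500 mOsm by -0.41 (edgeR adjusted p = 0.000269) and at 600 mOsm by -0.46 (edgeR adjusted p = 0.000110), while the serotonin carrier Slc6a4, at 0.358, 2.14 and 0.242 CPM, was higher at 500 mOsm (2.53, edgeR adjusted p = 0.000274, or 0.65 in limma on log2 FPKM plus 1).

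A few markers of other cell types moved with the 500 mOsm libraries at low levels. The sum of 6 epithelial markers was 0.205 to 0.491 CPM in iso-osmolar medium, 4.04 to 4.84 CPM at 500 mOsm and 0.348 to 0.628 CPM at 600 mOsm, and that of 5 endothelial markers 0.778 to 0.900, 11.9 to 13.4 and 2.13 to 3.18 CPM. Most of each sum at 500 mOsm came from 1 gene, Cdh1 (means of 0.0137, 3.47 and 0.0944 CPM) and Pecam1 (0.279, 11.1 and 1.67 CPM). Tek, at 0.0152, 0.480 and 0.0547 CPM and at most 13 counts in a library, was also called higher at 500 mOsm (edgeR adjusted p = 0.000824). The means of Cdh1 and Tek in iso-osmolar medium and at 600 mOsm lay under the floor of 3 counts. Both genes could thus be tested only through their 500 mOsm libraries, so the call of Tek is no separate support for a rise. Kdr, too low to test, was at 0, 0.353 and 0.0516 CPM, and Krt18, also not tested, at 0.0152, 0.117 and 0.0289 CPM. Krt8 was at 0.271, 0.657 and 0.297 CPM and did not pass. Epcam, Krt14, Cldn4 and Emcn stayed under 0.1 CPM in the means of all treatments, and Cdh5 was at 0.554, 0.568 and 0.751 CPM. In iso-osmolar medium 2 of the epithelial and 2 of the endothelial markers were at 0 in all libraries. The sum of 4 kidney tubule markers was 20.0 to 30.0 CPM in all libraries, nearly all of it Lrp2, and 1 to 3 of them were at 0 in all libraries of a treatment. The sum of 5 blood cell markers was 15.7 to 19.9 CPM in iso-osmolar medium, 21.7 to 34.2 CPM at 500 mOsm and 18.3 to 29.0 CPM at 600 mOsm. Of the 3 blood cell markers tested, 1 was called at 500 mOsm, where 28.0% of all genes tested were: Csf1r was higher (0.38, edgeR adjusted p = 0.00695). Its means were 11.2, 14.55 and 9.92 CPM. Lyz2, at 4.93, 10.2 and 12.4 CPM, was also part of the rise in the sum but did not pass. Its log2 fold changes were 1.06 at 500 mOsm (SE 0.504) and 1.34 at 600 mOsm (SE 0.501). The part of these cells in the values above was not tested.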

How the data were processed

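RNA from mouse fibroblasts in 3 treatments was measured in 9 libraries, 3 per treatment. Per the labels and methods, poly-A mRNA was fragmented, sequenced as paired reads of 150 bases and aligned to mm10, and the submitters' processing notes name CASAVA 1.8 and STAR, with no roles. The authors deposited raw read counts per gene, without normalization, and FPKM, which equalled counts divided by the listed length and the library total in 100.0% of values at a relative tolerance of 1e-06. The counting tool, its strand setting and the annotation are not given in the sources used here. The deposited table also holds the authors' log2 fold changes, p-values and adjusted p-values for each pair of treatments, which were not used.

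Counts were scaled by TMM (factors 0.974 to 1.013) and tested in edgeR 4.0.16 (R 4.3.3) by the quasi-likelihood test, fitting all 9 libraries together on the 13082 genes passing filterByExpr, with Benjamini-Hochberg adjustment over all of them and a threshold of 0.05. The common biological coefficient of variation was 0.0756. No 2 libraries of the 36 pairs were identical. Gene structures came from GENCODE M21 and promoters from RefSeq, both on GRCm38, the same assembly as mm10. A count of 3 was taken as the floor.

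The 8 genes, the lists and the tests were chosen with earlier results of these data known. Named genes were the 8, up to 4 per list and comparison with the smallest p among those past the threshold, the 2 nearest patterns per gene and genes overlapping or neighbouring a member. List genes are given in comparisons where they passed. Alternatives were RLE factors, library size alone, no filter, at least 10 counts in every library, the replicate number as a block, a fit of only the 2 groups compared, DESeq2 1.42.0, limma 3.58.1 on log2 FPKM with 1 or 0.1 added, an adjusted p under 0.01 and each library left out in turn. The correction for length and GC content (GC known for 99.5% of genes tested) was added after the data were seen.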

Additional observations from a re-analysis of the deposited data

How the results depend on the processing

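The number of the 8 genes called stayed at 5 or 6 at 500 mOsm, 4 or 5 at 600 mOsm and 4 between the intensities under all 20 settings tried, those leaving out a library included, and no gene called lost its call under any of them. Nfat5 at 500 mOsm gained a call with no filter (log2 fold change 0.29, edgeR adjusted p = 0.000624), with the length and GC correction (0.29) and without 500 mOsm library 2 (0.41, edgeR adjusted p = 0.0482), and its value ranged from 0.20, without 500 mOsm library 1, to 0.43. The fits with no filter and with that correction called more genes in general at 500 mOsm, 4808 and 4751 in place of 3659. Akr1b3 at 600 mOsm against iso-osmolar gained one with the length and GC correction (0.19), in the fit of only the 2 groups (0.13, edgeR adjusted p = 0.0374) and without 500 mOsm library 3 (0.12, edgeR adjusted p = 0.0351). The cause was not tested. Among values that did not pass the test, the sign turned for Akr1b8 at 600 mOsm against iso-osmolar with the library size alone (-0.0041), the length and GC correction (-0.035), limma with 1 added (-0.0055) and limma with 0.1 added (-0.0056), and it ranged from -0.041 to 0.065 when a library was left out. It also turned for Slc6a6 at 600 mOsm against iso-osmolar with the length and GC correction (0.077) and for Sord between the intensities, which ranged from -0.017 to 0.088 when a library was left out. With 1 added to FPKM the values of Slc5a3, a gene of low FPKM, shrank to 0.85, -0.43 and -1.29. Of 420 counts of called genes in the 7 lists under these settings, 379 stayed within 1.5 times and 41 did not, the latter in lists of 10 or fewer tested genes and, for the relatives of Nfat5 at 600 mOsm, at an adjusted p under 0.01 (6). At 500 mOsm the inositol list moved from 0 to 1 lower with no filter and without 500 mOsm library 1, and the betaine list to 3 higher and 1 lower with the length and GC correction. At 600 mOsm that correction gave 5 higher and 1 lower in the betaine list. Taurine synthesis gained 1 call at 600 mOsm with the library size alone, no filter or without 600 mOsm library 3. The labels number the libraries 1 to 3 in each treatment and name no shared batch, so the numbers were not taken as pairs. Deviations from the treatment mean had a mean correlation of -0.225 over 9 same-numbered pairs, with a range of -0.625 to 0.543. Over the other 18 pairs it was 0.115. Centring within treatments ties these means together, so they cannot show that pairing is absent. Where the replicate block was fitted, 5, 4 and 4 of the genes were called, and over all genes 3111, 3798 and 3089 in place of 3659, 4594 and 3810. Depth limits Slc6a12, whose level could not be compared.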
